A study of Mus musculus with 6 samples.

Results

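The 9 plasma cell identity genes Prdm1, Irf4, Xbp1, Pou2af1, Ell2, Sdc1, Tnfrsf17, Igj and Mzb1 were examined in spleen RNA. They were taken by name from 44794 gene loci that carried a name, and each name had 1 locus. Spleens came from 2 groups of mice, all carrying the lupus susceptibility interval Sle1b on the C57BL/6 background and all treated with imiquimod, which activates TLR7, an endosomal receptor for RNA, at 3 applications weekly over 4 weeks. The 3 B6.Sle1b libraries had an intact interferon-γ receptor and the 3 Sle1b.IFNγR-/- libraries lacked it. No untreated mice and no mice without Sle1b were among them, so all values are those of a stimulated, autoimmune-prone spleen. The labels name neither the deleted receptor subunit nor the age of the mice, nor whether 1 library is 1 mouse, so the spread between libraries may in part be technical. The study asked how interferon-γ promotes the entry of autoreactive B cells into the antibody-forming cell and germinal centre pathways.

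Plasma cells are the antibody-secreting end stage of the B cell lineage. Blimp-1, encoded by Prdm1, shuts down the B cell programme, IRF4 starts the switch and XBP1 expands the secretory apparatus. OCA-B, encoded by Pou2af1, is a coactivator of octamer-binding factors at immunoglobulin genes. ELL2, a transcription elongation factor, favours the secreted form of the immunoglobulin heavy chain. Sdc1 encodes syndecan-1 (CD138), the surface proteoglycan by which plasma cells are sorted, and Tnfrsf17 encodes BCMA, a receptor for the survival factors APRIL and BAFF. Igj, named Jchain in the annotation used here, encodes the joining chain of polymeric IgM and IgA, and Mzb1 encodes an endoplasmic reticulum chaperone of IgM assembly. Prdm1, Irf4 and Xbp1 are also transcribed in other cells, T cells and myeloid cells among them. In whole spleen, fewer plasma cells and less RNA per cell cannot be told apart.

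Promoters were shown for 3 members on which the results turn: Prdm1, whose groups lay farthest apart, Igj, with the smallest p, and Pou2af1, the most abundant per base. Each sequence is the RefSeq window (GRCm38.p6) from 250 bases before to 50 bases after the start of the gene, 5′ to 3′ on the gene's strand. The Prdm1 window lies inside the longer span that GENCODE gives the gene. Capitals mark a match, on either strand, to 1 of 5 motifs.
Prdm1 (chr10:44458699-44458998, minus strand): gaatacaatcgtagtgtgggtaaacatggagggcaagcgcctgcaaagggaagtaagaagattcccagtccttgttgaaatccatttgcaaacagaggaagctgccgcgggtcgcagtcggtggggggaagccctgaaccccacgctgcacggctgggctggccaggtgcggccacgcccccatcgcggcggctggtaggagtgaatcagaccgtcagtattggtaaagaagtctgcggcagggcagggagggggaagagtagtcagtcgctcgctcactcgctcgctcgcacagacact
Igj (chr5:88527848-88528147, minus strand): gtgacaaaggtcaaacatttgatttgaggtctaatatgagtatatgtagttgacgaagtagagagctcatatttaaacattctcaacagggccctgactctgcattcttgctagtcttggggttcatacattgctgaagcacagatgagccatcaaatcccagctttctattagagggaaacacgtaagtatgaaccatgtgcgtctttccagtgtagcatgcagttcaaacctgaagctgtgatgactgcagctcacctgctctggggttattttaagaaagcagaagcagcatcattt
Pou2af1 (chr9:51213440-51213739, plus strand): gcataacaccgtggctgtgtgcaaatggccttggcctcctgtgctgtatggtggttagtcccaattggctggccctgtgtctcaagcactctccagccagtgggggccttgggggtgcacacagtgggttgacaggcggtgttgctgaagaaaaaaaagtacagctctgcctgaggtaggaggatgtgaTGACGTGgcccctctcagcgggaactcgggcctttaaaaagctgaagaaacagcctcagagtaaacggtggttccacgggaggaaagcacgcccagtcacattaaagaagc
Windows of 8 of the 9 members, Mzb1 left out, were searched. The unfolded protein response element core TGACGTG was found in the Pou2af1 window alone, 61 bases before the start, and in 2.01% of all 32851 promoter windows. The core of an interferon-stimulated element, GAAANNGAA, was found in the Tnfrsf17 window, as TTCTGTTTC on the gene's strand, and in 8.56% of all windows. The octamer ATGCAAAT (1.74% of all windows), the gamma-activated site TTCNNNGAA (8.30%) and the Blimp-1 core AGNGAAAG (8.63%) had no match in the 8 windows. The interferon and Blimp-1 motifs share letters and can overlap. A match is a description of letters and not evidence of binding.

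Values are fragment counts per locus brought to a common quartile scale by the authors, called scaled counts here. Libraries held between 5531777 and 6349824 fragments in B6.Sle1b and between 4394298 and 5960907 in Sle1b.IFNγR-/-, and 1 fragment was worth between 0.822 and 1.20 scaled counts. B6.Sle1b replicate 1 stood apart. The level of the ribosomal protein genes, relative to an average library, was 2.48 there, against 0.754 and 0.985 in the other B6.Sle1b libraries and 0.888 to 0.926 in Sle1b.IFNγR-/-. Named loci held 27.0% of its summed values, against 17.5% to 20.0% elsewhere. B cell markers were present throughout, with a summed level of 7 genes of 1402, 485 and 817 scaled counts in B6.Sle1b, against 672, 663 and 763 in Sle1b.IFNγR-/-. Ifngr1, the ligand-binding receptor chain, lay at 81.5, 34.5 and 63.7 against 43.7, 21.4 and 24.0 scaled counts, and Ifngr2 at 13.2, 12.3 and 7.50 against 5.25, 10.1 and 4.79. Both pairs of ranges overlapped, and transcripts of a disrupted gene can persist, so neither checks the genotype.

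In the receptor-deficient spleens 8 of the 9 members had a lower mean, and the other, Tnfrsf17, was listed at 0 throughout. None differed between the genotypes past the threshold. Prdm1, Igj, Ell2 and Sdc1 had all 3 B6.Sle1b values above all 3 Sle1b.IFNγR-/- values, by more than 1 fragment only in Prdm1. Without B6.Sle1b replicate 1 the log2 difference of Irf4, Xbp1, Pou2af1, Ell2 and Igj shrank to between -0.56 and -0.21, while that of Prdm1 went from -0.70 to -0.54. The test was limma on log2(scaled count + 1) over the 19227 named loci whose mean reached 10, with Benjamini-Hochberg adjustment. It called 0 genes at an adjusted p under 0.05, or 0% of loci, while 596 had an unadjusted p under 0.05. Of the members 6 passed the filter on low values, and Sdc1, Mzb1 and Tnfrsf17 did not. A negative log2 difference was found at 58.1% of all tested loci, with a median of -0.08. Groups that did not overlap, lower in Sle1b.IFNγR-/-, were found at 5.19% of tested loci.

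**Figure D1:**
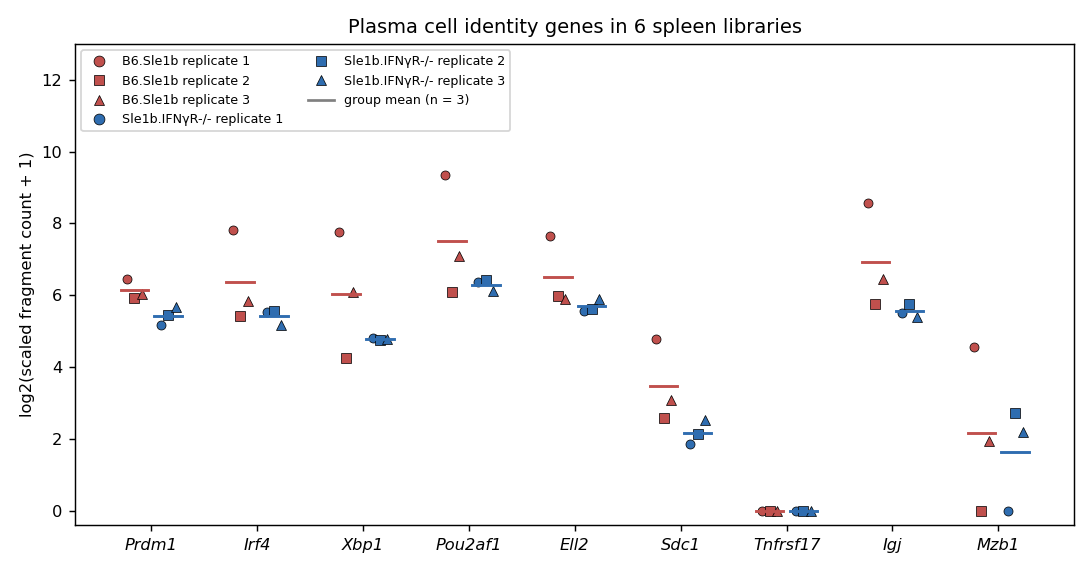
Level of each member, as log2(scaled fragment count + 1), in the 3 B6.Sle1b (red) and 3 Sle1b.IFNγR-/- (blue) libraries. Symbols mark the replicate and horizontal lines the group mean. B6.Sle1b replicate 1 is the highest library for the 8 members above 0. The 3 Sle1b.IFNγR-/- values of Xbp1 lie between 25.8 and 27.1 scaled counts, closer together than the counting error of their 22 to 31 fragments.

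Among the transcription factors, Prdm1 separated the genotypes best. It lies on chromosome 10 from 44437177 to 44528501 (GRCm38, minus strand). It gave 86.6, 59.2 and 64.7 scaled counts in the B6.Sle1b spleens, against 35.0, 42.7 and 50.3 in the Sle1b.IFNγR-/- spleens. The lowest B6.Sle1b library thus stood 8.88 scaled counts above the highest receptor-deficient one. Means were 70.2 ± 14.5 and 42.7 ± 7.67 (SD, n = 3 each), a ratio of 0.608. The log2 difference was -0.70 (SE 0.31, 95% interval -1.38 to -0.02), with a limma adjusted p of 0.99976 and rank 489 by p among 19227 loci. Without B6.Sle1b replicate 1 it was -0.54, and the ratio 0.689. With scaling to the ribosomal protein genes it was -0.28, and the groups overlapped. The values rested on 85, 72 and 69 fragments with the receptor, against 40, 38 and 42 in Sle1b.IFNγR-/-. Exact Poisson 95% intervals cover counting error only. For B6.Sle1b replicate 2, the lowest of its group in scaled counts, the interval ran from 56.3 to 90.7 fragments. For Sle1b.IFNγR-/- replicate 3, the highest of its group, it ran from 30.3 to 56.8. A fragment was worth 0.822 scaled counts in the former library and 1.20 in the latter. On the scaled counts these intervals therefore overlap more than in fragments.

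Irf4 (chromosome 13, 30749226 to 30766976, plus strand) lay at 225, 41.9 and 56.2 scaled counts with the receptor, against 45.5, 46.1 and 34.7 without it. B6.Sle1b replicate 1 stood far above the other 5 libraries, among which the genotypes overlapped. The log2 difference was -0.94 (SE 0.50, 95% interval -2.03 to 0.15, limma adjusted p = 0.99976), and -0.21 (95% interval -0.93 to 0.50) without that library.

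Xbp1 (chromosome 11, 5520659 to 5525893, plus strand) varied widely within B6.Sle1b, with 216, 18.1 and 67.5 scaled counts. In Sle1b.IFNγR-/- it lay at 27.1, 25.8 and 26.4. The second B6.Sle1b replicate fell under all receptor-deficient libraries. The receptor-deficient values rested on 31, 23 and 22 fragments, with exact Poisson 95% intervals of 21.1 to 44.0, 14.6 to 34.5 and 13.8 to 33.3. Counting error was thus wider than their range, so that narrow range does not measure how steady the gene is. The log2 difference of -1.26 (SE 0.64, 95% interval -2.64 to 0.12) became -0.40 without B6.Sle1b replicate 1 and -2.15 without replicate 2. The limma adjusted p was 0.0714 in the latter fit, the smallest of any member in any setting, and 0.99976 with all libraries.

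Pou2af1 (chromosome 9, 51213708 to 51240080, plus strand) reached 653 scaled counts in B6.Sle1b replicate 1, with 66.6 and 136 in the other replicates and 81.3, 84.3 and 68.3 in Sle1b.IFNγR-/-. The genotypes overlapped, since B6.Sle1b replicate 2 was the lowest library of all 6. The log2 difference was -1.21 (SE 0.60, 95% interval -2.50 to 0.08, limma adjusted p = 0.99976), and -0.29 without B6.Sle1b replicate 1.

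Ell2 (chromosome 13, 75706757 to 75772364, plus strand), the elongation factor gene, measured 200, 61.7 and 59.1 scaled counts in the B6.Sle1b spleens, against 46.3, 48.3 and 58.7 without the receptor. The groups did not overlap, but the gap of 0.366 scaled counts was less than 1 fragment in any library. The log2 difference was -0.81 (SE 0.42, limma adjusted p = 0.99976), and -0.24 without B6.Sle1b replicate 1.

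Of the surface markers, Sdc1 (chromosome 12, 8771323 to 8793715, plus strand) was scarce. It reached 26.5, 4.93 and 7.50 scaled counts with the receptor, against 2.62, 3.37 and 4.79 without it, that is 26, 6 and 8 fragments against 3, 3 and 4. The groups did not overlap by 0.141 scaled counts, again less than 1 fragment, and the exact 95% Poisson interval of the 4 fragments, 1.09 to 10.2, held the 6 of the nearest B6.Sle1b library. With a mean of 8.29 it stayed under the filter, and a two-sided exact permutation test gave p = 0.1, the smallest that 3 against 3 libraries allow. Tnfrsf17 (chromosome 16, 11313812 to 11320074, plus strand) was listed at 0 in all 6 libraries, as were 796 of 20848 protein-coding gene names (3.82%). Where no estimate failed, 0 fragments allow a level of up to 2.47 to 3.59 scaled counts, the worth of 3 fragments, a one-sided 95% limit. The two-sided exact Poisson interval, as given for Sdc1, reached 3.69 fragments. Rps2, a ribosomal protein gene that every cell uses, was also listed at 0 in B6.Sle1b replicate 1, so a 0 does not show that a gene is silent.

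Of the genes of antibody assembly, Igj (chromosome 5, 88519809 to 88527891, minus strand) had the smallest p of the members, at rank 238. It stood at 377, 53.4 and 86.2 scaled counts in the B6.Sle1b spleens, against 44.6, 52.8 and 40.7 in the Sle1b.IFNγR-/- spleens. All B6.Sle1b values lay above all others, the closest by 0.618 scaled counts, less than 1 fragment. Means were 172 ± 178 and 46.0 ± 6.17 (SD, n = 3 each). The log2 difference was -1.38 (SE 0.54, 95% interval -2.55 to -0.20, limma adjusted p = 0.99976), and -0.56 (95% interval -1.24 to 0.13) without B6.Sle1b replicate 1. Mzb1 was detected unevenly, with 22.4, 0 and 2.81 scaled counts in the B6.Sle1b spleens, against 0, 5.62 and 3.59 without the receptor. Outside B6.Sle1b replicate 1 it had at most 5 fragments in a library, and its log2 difference changed sign, from -0.52 to 0.68, when that library was left out.

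**Figure D2:**
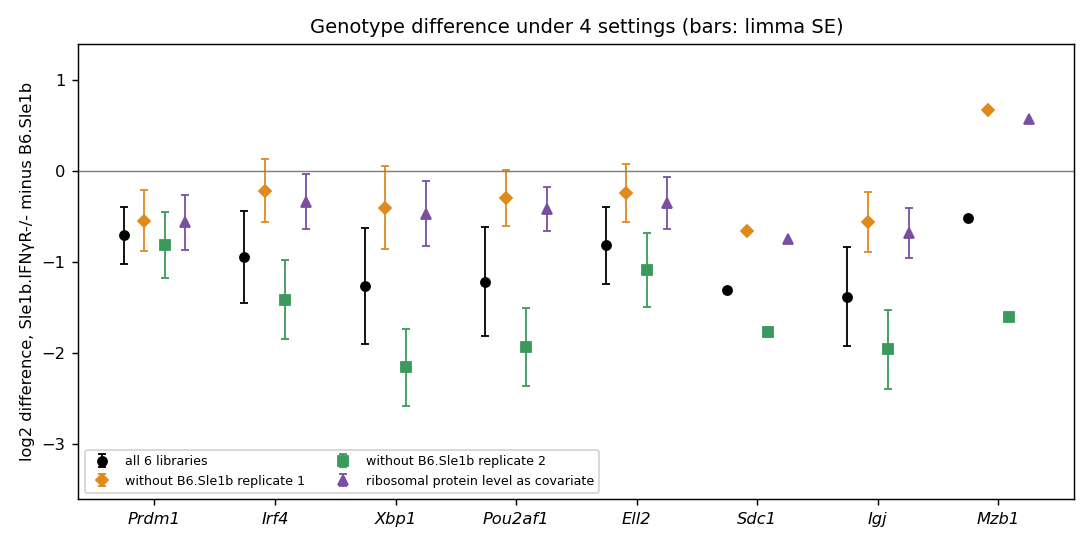
Log2 difference of each member above 0 (Sle1b.IFNγR-/- minus B6.Sle1b, on the log2(scaled count + 1) scale) with all 6 libraries, without B6.Sle1b replicate 1, without replicate 2, and with the ribosomal protein level as a covariate. Bars are limma's SE, absent for Sdc1 and Mzb1, which were under the filter; Prdm1 moved between -0.81 and -0.54 over these settings, and Xbp1 between -2.15 and -0.40.

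How far B6.Sle1b replicate 1 departed from the other 5 libraries differed from member to member. Its value was 7.48 times their mean for Pou2af1, 6.79 times for Igj, 6.55 times for Xbp1, 5.02 times for Irf4 and 3.64 times for Ell2. For Prdm1 it was 1.72 times. The median over all tested loci was 1.18, over 27 ribosomal protein genes 2.98 and over the 7 pan-B cell genes 2.23. Loci at or above the excess of Pou2af1 made up 0.390% of those tested, and loci at or above that of Prdm1 made up 23.9%. Markers of several other cells were raised in the same library, by unlike amounts. The summed level of 6 monocyte and macrophage genes was 1425 scaled counts, against 261 and 447 in the other B6.Sle1b libraries. For 6 erythroid genes it was 1348 against 144 and 328, with 597, 457 and 373 in Sle1b.IFNγR-/-, and for 8 T cell genes 485 against 273 and 331. For 5 NK cell genes it was 37.7 against 34.5 and 34.7. The 8 pancreas and epithelial genes were lower, at 26.5 against 91.3 and 41.2. The part of these cells in the members' values was not tested. Leaving out B6.Sle1b replicate 2, the library of lowest ribosomal level, left 7 members without overlap (Prdm1, Irf4, Xbp1, Pou2af1, Ell2, Sdc1 and Igj), where 16.6% of tested loci did not overlap in that direction. Leaving out replicate 1 left the same 4 as with all libraries, where 8.76% of loci did not overlap.

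Ratios within a library do not depend on the scale between libraries, apart from the 1 added to each value, which weighs on low genes. Each member was therefore set against the median log2 level of the 7 pan-B cell genes. Igj lay at 1.09, -0.14 and -0.37 relative to that level in B6.Sle1b and at -0.62, -0.42 and -1.37 in Sle1b.IFNγR-/-. The joining chain was thus lower per B cell transcript in each receptor-deficient library. The log2 difference was -0.99 (two-sided exact permutation p = 0.1, the smallest possible), or -0.54 without B6.Sle1b replicate 1. The nearest values, -0.37 and -0.42, rested on 92 and 47 Igj fragments and differed by less than counting error. Sdc1 did not overlap either, with a difference of -0.92 and the same p, but with a pseudocount of 10 in place of 1 the difference was -0.29 and the groups overlapped (exact permutation p = 0.3). Of the 19227 tested loci, 0.702% did not overlap in this direction on this scale. Prdm1 overlapped, at -1.02, 0.00 and -0.78 against -0.96, -0.72 and -1.07, with a difference of -0.32 (exact permutation p = 0.6). Irf4, Xbp1, Pou2af1, Ell2 and Mzb1 overlapped as well, with differences from -0.88 in Xbp1 to -0.13 in Mzb1. With the summed values of the pan-B cell genes as the reference, Pou2af1 no longer overlapped (difference -0.98, exact permutation p = 0.1). The share of all loci without overlap was not computed for that reference.

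Against the median level of the ribosomal protein genes, Igj lay at 2.14, 1.18 and 1.25 in B6.Sle1b, against 0.89, 0.89 and 0.32 in Sle1b.IFNγR-/-. Igj (difference -0.83) and Sdc1 (-0.75) were again the members without overlap, each with an exact permutation p of 0.1, where 0.364% of tested loci did not overlap in this direction. Prdm1, whose scaled counts were the best separated, lay at 0.03, 1.33 and 0.84 against 0.55, 0.59 and 0.62. Its B6.Sle1b values thus straddled the receptor-deficient ones, and the difference of -0.15 (exact permutation p = 0.7) turned to 0.15 without B6.Sle1b replicate 2. Igj thus separated the genotypes on both of these scales and as scaled counts. Its margin was within counting error against the pan-B cell level and under 1 fragment as scaled counts. Against the ribosomal protein level the nearest values, 1.18 and 0.89, rested on 65 and 51 Igj fragments. The exact Poisson 95% intervals of these fragments, 50.2 to 82.8 and 38.0 to 67.1, overlapped. Sdc1 separated them except against the pan-B cell level with the larger pseudocount, and Prdm1 did so as scaled counts alone. Sdc1 rested on only 26, 6 and 8 fragments against 3, 3 and 4. It stayed under the filter, so the shares of tested loci do not include it.

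Igj was also set against Igkc, the kappa light chain gene and itself a product of antibody-secreting cells. The log2 ratio was -4.62, -3.64 and -3.65 in B6.Sle1b, against -3.22, -2.74 and -3.47 in Sle1b.IFNγR-/-. The ratio was higher in the 3 receptor-deficient libraries, by 0.83 (two-sided exact permutation p = 0.1), or 0.50 without B6.Sle1b replicate 1. On this scale 66.8% of tested loci did not overlap in the same direction, since Igkc itself differed by -2.21 on the log2 scale, so the separation is not particular to Igj. Both genes had lower means in Sle1b.IFNγR-/-, Igkc by the larger factor, with scaled counts of 9267, 677 and 1097 against 424, 357 and 461.

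**Figure D3:**
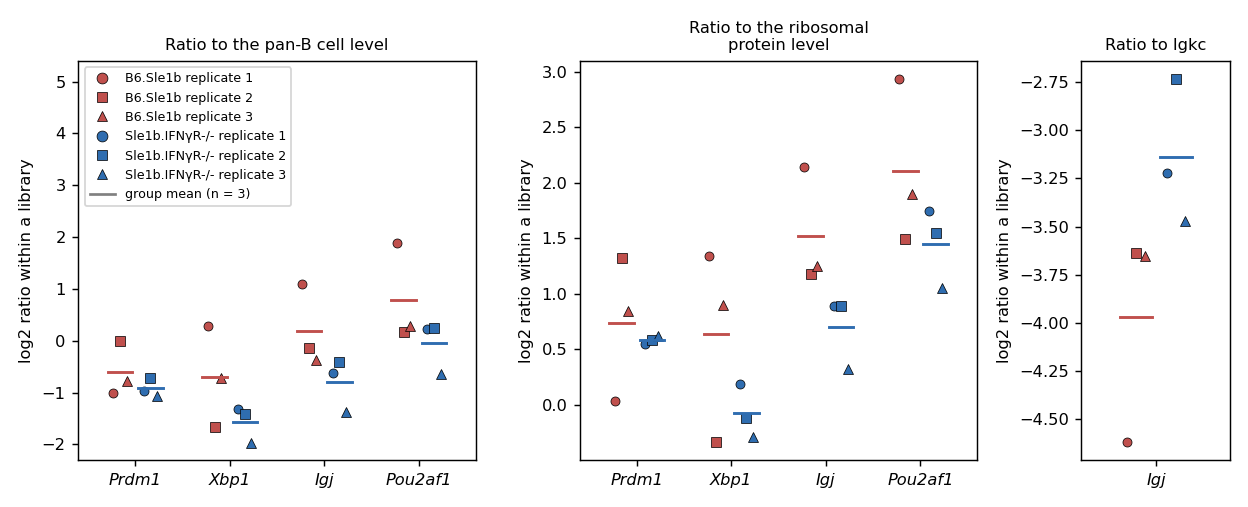
Log2 ratio within each library of Prdm1, Xbp1, Igj and Pou2af1 to the median level of 7 pan-B cell genes (left) and of 29 ribosomal protein genes (middle), and of Igj to Igkc (right); the panels have their own scales. Igj does not overlap between the genotypes in any panel, lower in Sle1b.IFNγR-/- by 0.99 and 0.83 in the first panels and higher by 0.83 against Igkc, where 66.8% of tested loci also separate in that direction.

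Levels were compared between members per kilobase of annotated exon. In Sle1b.IFNγR-/- the order was Pou2af1 with 30.6 ± 3.34, Igj with 18.3 ± 2.45, Irf4 with 8.59 ± 1.30, Xbp1 with 8.14 ± 0.195, Prdm1 with 7.65 ± 1.37 and Ell2 with 5.20 ± 0.675 scaled counts per kilobase (SD, n = 3 each). Irf4, Xbp1 and Prdm1 differed by less than the SD of Irf4 or of Prdm1. The SD of Xbp1 was smaller, and lay under the counting error of its 22 to 31 fragments. In B6.Sle1b the means were 112 ± 126, 68.4 ± 70.8, 22.0 ± 20.8, 31.0 ± 31.7, 12.6 ± 2.60 and 10.9 ± 8.19 in the same order of genes. Apart from Prdm1, the SD there was close to the mean, so no order among neighbours can be read. Mzb1 (2.53 ± 2.34) and Sdc1 (0.944 ± 0.289) were lowest in Sle1b.IFNγR-/- among the members above 0.

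The patterns of the 6 tested members over the 6 libraries were alike, with Pearson's r of log2 levels from 0.737 for Prdm1 and Irf4 to 0.990 for Irf4 and Pou2af1. The points share the high first library, and each r is given as a description. Among the named genes whose levels were most like the mean profile of the members were Spata13 (r = 0.992), Gvin1 (0.989), Nup107 (0.989) and Iqsec1 (0.988). In these 4 the highest library was B6.Sle1b replicate 1, and 653 loci (3.40%) had an r of at least 0.9. Closest to Prdm1 were Eif2ak1 (0.991), Ttc7 (0.988) and Kmt2b (0.988), closest to Irf4 were Tmed9 (0.997), Celf2 (0.996) and Trim25 (0.996), and closest to Xbp1 were Herpud2 (0.997), Tbc1d5 (0.994) and Ube2q1 (0.994).

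Genes around the plasma cell programme were counted next, against 58.1% of all tested loci with a negative difference and 5.19% lower without overlap. None of them passed the limma test on the values as deposited with all 6 libraries and no covariate. Of 16 other plasma cell genes 13 were tested, 11 with a negative difference, and the median was -0.39. Creld2, which endoplasmic reticulum stress induces, measured 83.6, 11.5 and 21.6 scaled counts with the receptor, against 6.12, 3.37 and 2.40 without it. Derl3, which takes part in endoplasmic reticulum-associated degradation, lay at 39.7, 20.6 and 16.9 against 6.12, 12.4 and 4.79, and the disulfide isomerase gene Txndc5 at 62.2, 8.22 and 36.6 against 8.74, 16.9 and 4.79. Creld2 and Derl3 did not overlap between genotypes, and Txndc5 did. Derl3 reached the filter through B6.Sle1b, with a mean of 25.7 against 7.76. Creld2 did so too, with a mean of 38.9 against 3.96, and fell under it without B6.Sle1b replicate 1. In that fit 12 of these genes were tested, 7 with a negative difference, and the median was -0.06.

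Of 16 genes of XBP1 and the unfolded protein response 15 were tested, all with a negative difference, and the median was -0.61. Sec24d, a coat protein gene of vesicles leaving the endoplasmic reticulum, had means of 26.3 ± 12.8 and 9.91 ± 6.67 scaled counts (SD, n = 3 each). It too reached the filter through B6.Sle1b. The chaperone gene Hsp90b1 lay at 1985, 136 and 345 against 207, 164 and 172. Ern1, which encodes the IRE1 sensor that splices Xbp1 mRNA, did not overlap, with 71.3, 51.0 and 48.7 against 38.5, 36.0 and 40.7. Without B6.Sle1b replicate 1, 14 were tested, 10 of them with a negative difference, against 48.3% of all loci in that fit, and the median was -0.16. The 12 antibody constant region genes had a median of -0.97 with 11 negative, led by Ighg2c, Ighg3 and Igkc, and of -0.36 without that library. Of the 5 genes then called by limma, 3 were in this list: Ighg2c (log2 difference -1.45, adjusted p = 0.0082) and Ighg3 (-1.35, adjusted p = 0.010) were lower in Sle1b.IFNγR-/-, and Igha, the heavy chain of IgA, was higher (1.44, adjusted p = 0.017). With the ribosomal protein level as a covariate over all 6 libraries, limma called Ighg2c (-1.63), Ighg3 (-1.52) and Igkc (-1.24) lower and Igha (1.28) higher, as 4 of 8 genes called. Without B6.Sle1b replicate 2 it called Ighg2c, Ighg3 and Igkc, all lower, and not Igha (-0.22, adjusted p = 0.93).

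B cell genes that are silenced as plasma cells form had mostly negative differences too. Of 14 such genes 13 were tested, 10 with a negative difference, with a median of -0.43. Without B6.Sle1b replicate 1, 12 were tested, 7 with a negative difference, and the median was -0.06. Bcl6, the germinal centre repressor that Blimp-1 silences, lay at 95.8, 37.8 and 82.5 scaled counts in B6.Sle1b, against 35.9, 21.4 and 27.6 in Sle1b.IFNγR-/-, without overlap (log2 difference -1.25, SE 0.40, limma adjusted p = 0.99976). Bach2, a repressor of Prdm1, lay at 180 ± 88.5 against 121 ± 18.9, and Pax5, the B cell identity factor, at 465 ± 171 against 337 ± 29.7 (SD, n = 3 each), both overlapping. Of 11 survival and niche genes 9 were tested, 6 with a negative difference, with a median of -0.11. Il21, a T cell cytokine that drives plasma cell formation, had higher values in the receptor-deficient libraries, which did not overlap, at 39.3, 49.4 and 55.1 against 31.6, 36.2 and 37.5 scaled counts (log2 difference 0.43, SE 0.32), and 3.51% of tested loci did not overlap in that direction. Cd28 (73.7 ± 33.0 against 46.7 ± 6.82) and the homing receptor gene Cxcr4 (22.4 ± 15.1 against 13.6 ± 5.70) overlapped.

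**Figure D4:**
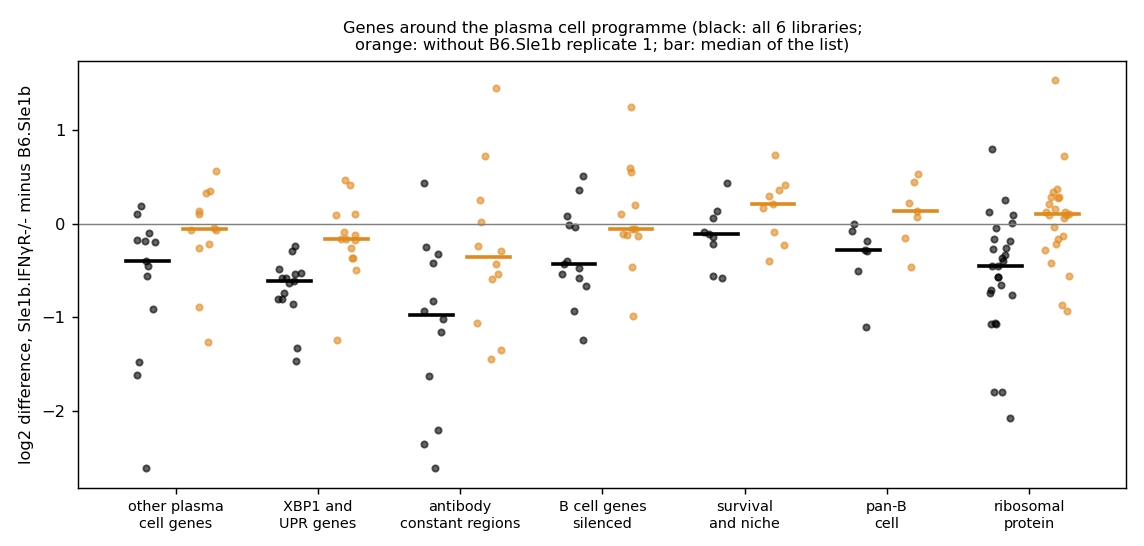
Log2 difference (Sle1b.IFNγR-/- minus B6.Sle1b) of each tested gene in 7 lists, with all 6 libraries (black) and without B6.Sle1b replicate 1 (orange); bars are list medians. The median of the genes of XBP1 and the unfolded protein response goes from -0.61 (15 genes tested) to -0.16 (14 tested), and that of the pan-B cell genes from -0.28 to 0.14.

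Markers of the other cells in spleen gave the following medians of tested genes, with the number tested. They were -0.28 for pan-B cells (7), -0.30 for T cells (6), -0.46 for NK cells (2), -0.59 for plasmacytoid dendritic cells (3), -0.49 for monocytes and macrophages (6), 0.04 for red pulp macrophages (5), -0.10 for neutrophils (4), 0.23 for erythroid cells (6), -0.37 for stroma and endothelium (4), -0.19 for pancreas and epithelium (2) and -0.45 for ribosomal protein genes (27). The 8 pancreas and epithelial markers summed to 26.5, 91.3 and 41.2 scaled counts in B6.Sle1b, against 49.8, 67.4 and 47.9 without the receptor, with overlap. The summed level of 8 T cell genes, from cells that can transcribe Prdm1 and Irf4, ranged from 273 to 485 scaled counts in B6.Sle1b and from 261 to 303 in Sle1b.IFNγR-/-. Their part in the members' values was not tested.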

How the data were processed

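Spleen RNA was made into cDNA with the Ovation RNA-seq System V2, per the labels' protocols, and CASAVA, TopHat2 2.0.9, Cufflinks 2.2.1 and GRCm38 are named in the submitters' processing notes. Sources used here name neither the annotation release nor how multi-mapped reads were treated. The deposited signal is a fragment count per locus, put on a quartile scale by the authors, as the deposited table is named. The 1530481 rows, some of them repeats, were collapsed to 426574 loci. The values of a library were multiples of its own step (99.8% of those above 0, to a tolerance of 0.01), but very small values kept counts from being recovered in full, so the planned count tests were not used. Another 24 columns of per-sample values were not used. Named loci whose mean reached 10 were tested on log2(value + 1), which understates the change of low genes, by limma (version 3.58.1, R 4.3.3), with genotype as the term and a trend on mean level. The procedure was tested on simulated data with capped, independent noise and no library that stood apart as B6.Sle1b replicate 1 does. That test does not show how the fit performs on these values. Ratios were tested in scipy 1.17.1. Exon lengths and positions came from GENCODE mouse release 21 (GRCm38). Reads of overlapping or antisense genes may be shared, since no strand setting is stated. The members, the 16 further lists (159 of 162 entries matched) and the tests were chosen with earlier results of these data known. The text names all members, up to 3 genes of smallest p in a list and, by Pearson's r, the genes most like the members, leaving out predicted genes and immunoglobulin segments. One gene of the likeness rule is not reported here. Rps2 and Igha were named after their values were seen.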

Additional observations from a re-analysis of the deposited data

How the results depend on the processing

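No member passed the limma threshold in any of the 18 alternatives. The count of genes called over all named loci, 0 as deposited, was 1 with total scaling, 4 with scaling to ribosomal protein genes and 8 with the ribosomal protein level as a covariate, and between 0 and 5 with 1 library removed. The cause was not tested. Those 5 were reached without B6.Sle1b replicate 1 and without replicate 2. The count of members without overlap was between 4 and 7 with 1 library removed, and was 3 to 5 with the other settings. The share over all tested loci was 5.19% as deposited, 8.76% without B6.Sle1b replicate 1 and 16.6% without replicate 2. It was not computed separately for the other settings, so the counts there have no background beside them. Prdm1 overlapped with ribosomal protein scaling, which moved the median of all genes from -0.08 to 0.33. Ell2 overlapped with median-ratio, upper-quartile and ribosomal protein scaling. Irf4, which overlapped as deposited, did not overlap with total scaling or with ribosomal protein scaling.

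The 7 members other than Mzb1 and Tnfrsf17 (0 throughout) kept a negative log2 difference in each alternative. That of Mzb1 was 0.57 with the covariate and ranged from -1.60 to 0.68 without single libraries. Its ratio to the pan-B cell level was 0.035 with a pseudocount of 10 and ranged from -0.80 to 0.69, its ratio to the ribosomal level from -0.64 to 0.74, and that of Prdm1 to the ribosomal level from -0.50 to 0.15. Depth limits Mzb1 and Sdc1, with at most 26 fragments in a library, and Tnfrsf17, with 0.

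No pairing by replicate number was seen. Same-numbered libraries correlated at 0.012, -0.027 and -0.011 in their deviations from the group means. The fit with the replicate block called 0 genes (567 at an unadjusted p under 0.05). The labels do not say whether same-numbered libraries were handled together, and so few libraries cannot settle it. The planned count tests were not run, because whole fragments could not be recovered in full.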
